A study of Homo sapiens with 18 samples.

Results

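The genes of the basal transcription machinery were taken from a RefSeq table of GRCh38.p14 by symbol. They were the protein-coding genes whose symbols begin with POLR1, POLR2, POLR3, GTF2 or GTF3, the numbered TAF genes with or without a final B, and TBP, with the TAF11L genes left out. The rule found 77 of 19974 protein-coding genes on chromosomes 1 to 22 and X. No measured value entered it. The 4 genes of the TFII-I family carry the GTF2 prefix but encode signal-responsive DNA-binding factors rather than parts of the basal machinery. Each of 9 members (POLR2J, POLR2J2, POLR2J3, GTF2H2, GTF2H2C, GTF2H2C_2, GTF2I, GTF2IRD2 and GTF2IRD2B) has a near-identical copy, so short reads there may be split between copies and the calls are uncertain.

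RNA polymerase I makes the large ribosomal RNA precursor, RNA polymerase II makes messenger RNA, and RNA polymerase III makes transfer RNA and other short RNAs. TBP and its associated factors (TAFs) recognise core promoters, and the TFII and TFIII factors load the polymerase, melt the DNA and start synthesis. Most of these genes are active in all dividing cells, and many are transcribed from CpG-rich promoters that lack a TATA box.

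A549, an established line of human lung adenocarcinoma cells, was profiled by CUT&Tag, which uses an antibody on chromatin to direct a transposase to nearby DNA. The cells were wild type (WT), carried a knockout of YTHDF1 (YTHDF1-KO) or had ARID1A knocked down with siRNA (siARID1A). Each of these 3 conditions was profiled with anti-YTHDF1, against a reader of N6-methyladenosine in RNA, and with anti-ARID1A, against a subunit of the SWI/SNF chromatin remodeller, in 2 replicates. The resulting 12 peak lists were analysed, and the 6 IgG samples were not analysed here. Whether the replicates were separate cultures and whether the knockout line is a single clone is not stated in the labels, and the spread between replicates may be technical.

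A library was said to hold a gene if a peak overlapped the gene or the 1 kb on either side of it by at least 1 bp. Where it did, the strongest such peak was placed by its percentile of total signal within its own list. The total signal is the authors' value for the peak and grows with its length, and lists differ in length, so percentiles describe a place within a list and show no change between lists. At 60 members RefSeq also gave a promoter window, from 250 bases before the gene start to 50 after it.

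Sequences just before the start are shown for 9 members whose peaks form the main patterns. Each line gives the 150 bases before the start, 5′ to 3′ on the gene's strand, from RefSeq on GRCh38.p14. Capitals mark matches on either strand to 8 motifs, and adjoining matches run together. The letters searched were TATAAA for the TATA box, GGGCGG for the GC box, CCAAT for the box of that name, CCGGAA for the ETS core, GCGCATG for the NRF1 motif, AAGATGGC for the YY1 core, TGACG for the CRE motif and CACGTG for the E-box. The first 4 promoters carried a peak in all 12 libraries: POLR2A at chr17:7484216-7484365 (plus strand), POLR2H at chr3:184361560-184361709 (plus strand), POLR3E at chr16:22297259-22297408 (plus strand) and GTF3C2 at chr2:27356765-27356914 (minus strand).
POLR2A: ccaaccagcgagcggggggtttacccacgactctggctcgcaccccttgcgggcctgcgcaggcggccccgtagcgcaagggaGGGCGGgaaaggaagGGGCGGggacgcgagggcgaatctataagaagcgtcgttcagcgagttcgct
POLR2H: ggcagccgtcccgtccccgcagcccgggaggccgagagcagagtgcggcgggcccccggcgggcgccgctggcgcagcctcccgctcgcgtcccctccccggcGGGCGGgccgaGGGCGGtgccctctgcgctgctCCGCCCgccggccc
POLR3E: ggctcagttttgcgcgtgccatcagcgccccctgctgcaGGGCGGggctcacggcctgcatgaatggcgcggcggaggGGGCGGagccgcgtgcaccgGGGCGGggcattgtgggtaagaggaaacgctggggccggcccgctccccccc
GTF3C2: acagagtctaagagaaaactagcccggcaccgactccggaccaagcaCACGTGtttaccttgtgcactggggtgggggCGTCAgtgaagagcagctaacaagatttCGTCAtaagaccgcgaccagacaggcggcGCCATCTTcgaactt
The next were held by all 6 anti-ARID1A libraries and by 0 or 1 anti-YTHDF1 library: TAF9 at chr5:69369825-69369974 (minus strand) and TAF13 at chr1:109076004-109076153 (minus strand).
TAF9: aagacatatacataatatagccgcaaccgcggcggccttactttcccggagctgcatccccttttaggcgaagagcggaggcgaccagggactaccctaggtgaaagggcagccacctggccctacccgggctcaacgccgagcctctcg
TAF13: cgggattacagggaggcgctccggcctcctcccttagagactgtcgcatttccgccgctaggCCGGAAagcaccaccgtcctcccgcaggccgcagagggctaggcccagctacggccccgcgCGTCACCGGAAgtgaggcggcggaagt
TAF4 at chr20:62065882-62066031 (minus strand) had no peak at its promoter window in any library but a peak inside the gene in all 12.
TAF4: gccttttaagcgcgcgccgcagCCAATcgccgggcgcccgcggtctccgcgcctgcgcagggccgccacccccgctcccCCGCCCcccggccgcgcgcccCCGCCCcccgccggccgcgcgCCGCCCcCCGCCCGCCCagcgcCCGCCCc
The last 2 are GTF3C3 at chr2:196799684-196799833 (minus strand) and GTF3C6 at chr6:110958556-110958705 (plus strand). Over the gene or 1 kb around it, each was held with anti-ARID1A in both WT libraries and in neither siARID1A library. The promoter window itself was held by 1 anti-ARID1A library at GTF3C3 and by 3 at GTF3C6.
GTF3C3: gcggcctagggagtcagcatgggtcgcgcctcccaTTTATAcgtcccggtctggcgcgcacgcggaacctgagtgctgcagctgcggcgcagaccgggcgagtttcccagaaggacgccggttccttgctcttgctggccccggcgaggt
GTF3C6: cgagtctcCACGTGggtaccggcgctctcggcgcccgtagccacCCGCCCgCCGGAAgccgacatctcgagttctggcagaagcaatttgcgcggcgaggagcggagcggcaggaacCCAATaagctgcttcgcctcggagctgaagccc
The GC box recurred before POLR2A, POLR2H and POLR3E, while no motif lay in the 150 bases of TAF9. In the sequence of GTF3C3 a TATA box match stood far from the start. A match describes letters only and says nothing about binding.

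The anti-ARID1A lists held 71271 to 106882 peaks and the anti-YTHDF1 lists 40562 to 59632, at a sequencing depth that is unknown. Anti-ARID1A peaks covered 228 to 266 Mb in WT and YTHDF1-KO cells and 99.0 and 128 Mb in siARID1A cells. In those 2 siARID1A libraries the mitochondrial peak took 49.5% and 44.9% of all listed signal, against 18.1% to 23.0% in the other anti-ARID1A libraries. Of 8 markers of A549-like epithelium 7 were held by all 6 anti-ARID1A libraries and 4 by all 12 libraries. Of 8 markers of other cell types 4 were held by all 6 anti-ARID1A libraries and 4 by all 12, beside 68.3% and 35% of all genes. MS4A1 and ALB were held by no library. A peak over a gene is thus not a measure of its expression. The YTHDF1 gene was held by all 12 libraries and ARID1A by 11, the exception being WT anti-YTHDF1 replicate 2. Peaks over these genes do not check the knockout or the knockdown.

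Most machinery genes carried an anti-ARID1A peak in every library, and a smaller number carried an anti-YTHDF1 peak in every library. The 6 anti-ARID1A libraries held 72 and 74 members in WT, 72 and 68 in YTHDF1-KO and 67 and 71 in siARID1A cells. The 6 anti-YTHDF1 libraries held 55 and 45, 48 and 47, and 59 and 56 in the same order. The ranges of the antibodies did not overlap, and neither did the shares of all genes held (74.7% to 82.3% against 57.4% to 67.2%). In percent, members were held at 91.8 ± 3.45 with anti-ARID1A and at 67.1 ± 7.42 with anti-YTHDF1 (mean ± SD, n = 6 libraries each, pooled over the 3 conditions), beside 79.9 and 62.1 for all protein-coding genes.

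All 6 anti-ARID1A libraries held 66 of the 77 members, or 85.7%, where 68.3% of all genes were so held. All 6 anti-YTHDF1 libraries held 25, or 32.5%, beside 35.8% of all genes. The same 25 were held by all 12 libraries, beside 35% of all genes. Without the 9 members that have copies, all 6 anti-ARID1A libraries held 59 of 68, or 86.8%. All 6 anti-YTHDF1 libraries, and all 12 libraries, then held 18, or 26.5%. Only POLR1H and GTF2H2 were held by no library, beside 8.28% of all genes. The share held by all 6 anti-ARID1A libraries was thus above that of all genes, with or without the copies. The share held by all 6 anti-YTHDF1 libraries was near that of all genes with the copies and below it without them. Machinery genes had a median length of 28.8 kb against 24.2 kb over all genes, and 44 of the 77 windows also held another protein-coding gene. The part of length and of neighbours in these shares was not tested.

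**Figure D1:**
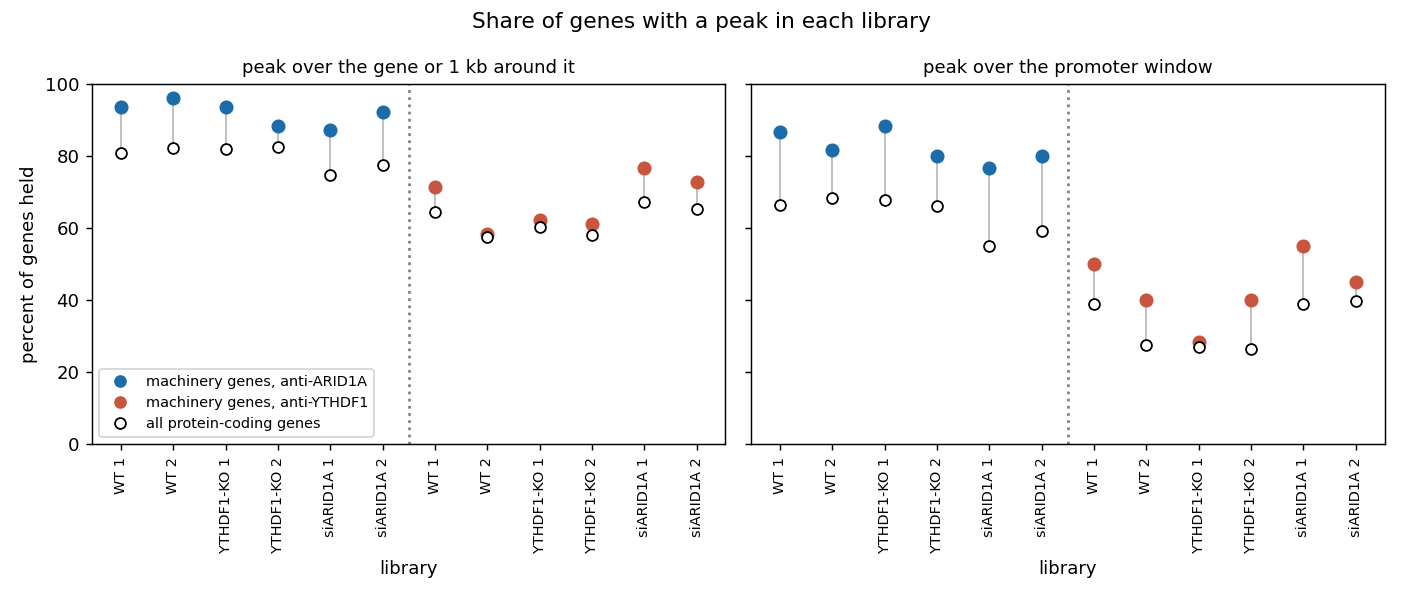
Percent of genes with a peak in each of 12 libraries, for the machinery genes (filled: blue anti-ARID1A, red anti-YTHDF1) and for all protein-coding genes (open), over the gene and 1 kb (left) and over the RefSeq promoter window (right). Filled points lie above the open points in every library, by the least in WT anti-YTHDF1 replicate 2 on the left (58.4% against 57.4%).

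At the promoter windows the same order was seen. Anti-ARID1A libraries held 52 and 49 of 60 promoters in WT, 53 and 48 in YTHDF1-KO and 46 and 48 in siARID1A cells. Anti-YTHDF1 libraries held 30 and 24, 17 and 24, and 33 and 27. All 6 anti-ARID1A libraries held 42 of 60 promoters, or 70%, beside 46.6% of all promoters, and all 6 anti-YTHDF1 libraries held 7, or 11.7%, beside 9.78%. Those 7, of POLR1G, POLR2A, POLR2H, POLR2J2, POLR3E, GTF3C2 and TAF6, were also held by all 12, beside 9.66% of all promoters. No library held the promoters of POLR1H, GTF2H2 and TAF4, or 3 of 60, beside 20.1% of all promoters.

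**Figure D2:**
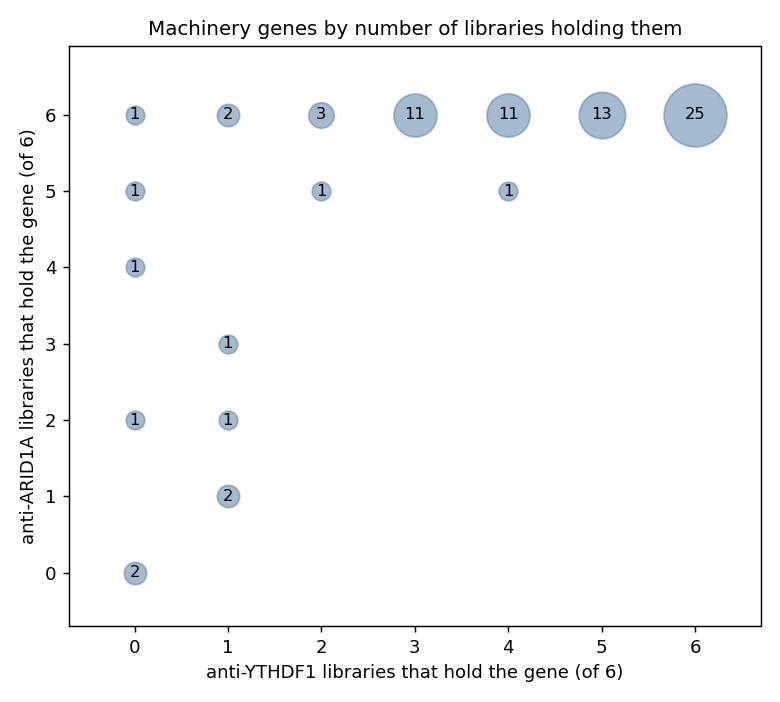
Number of machinery genes (in the circles, whose area grows with it) by the anti-YTHDF1 libraries (x axis, 0 to 6) and the anti-ARID1A libraries (y axis, 0 to 6) that hold them. The 25 genes at the upper right were held by all 12 libraries, and TAF9 stands alone at 6 anti-ARID1A and 0 anti-YTHDF1 libraries.

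Replicates agreed less with anti-YTHDF1. Of the 77 members, 31.2% in WT, 29.9% in YTHDF1-KO and 29.9% in siARID1A cells were held by a single anti-YTHDF1 replicate, beside 22.9%, 23.9% and 20.1% of all genes. With anti-ARID1A the shares were 2.60%, 5.19% and 5.19%, beside 6.25%, 6.91% and 10.9%. A missing anti-YTHDF1 peak at a machinery gene in one library was therefore common within a condition.

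All 10 RNA polymerase II genes outside the shared subunits were held by all 6 anti-ARID1A libraries, beside 68.3% of all genes. Of these, 5 were held by all 6 anti-YTHDF1 libraries, beside 35.8% of all genes. Among those 5 were POLR2J, POLR2J2 and POLR2J3, near-identical copies whose calls are uncertain. POLR2A, at chr17:7484366-7514616, encodes the largest subunit, which bears the catalytic centre and the C-terminal repeat tail. Its anti-ARID1A percentiles were 90.3 and 95.6 in WT, 90.8 and 88.5 in YTHDF1-KO, and 93.8 and 95.0 in siARID1A cells. With anti-YTHDF1 they were 90.9 and 96.8, 93.1 and 97.2, and 94.6 and 94.8. Over all held genes the median percentile of the strongest peak was 81.6 to 86.0 in the anti-ARID1A lists and 70.2 to 76.2 in the anti-YTHDF1 lists. Over held members it was similar, 83.1 to 86.7 and 72.3 to 80.0, so percentiles near these values are ordinary. POLR2A was above the median of all held genes in every list, those of the knockout cells included. The highest signal lay within 500 bp of its start in 11 of 12 libraries, in a promoter shared with ZBTB4, which starts 117 bp away in the opposite direction.

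POLR2I, an RNA cleavage subunit, stood in the top percentiles as well, from 99.4 with anti-ARID1A and from 96.2 to 98.8 with anti-YTHDF1. Its window also held OVOL3 and TBCB, and its strongest peaks were 1.60 to 52.7 kb long, so the signal could not be given to a single gene. POLR2B, the second largest subunit, and POLR2M, the accessory protein Gdown1, were held by all 6 anti-ARID1A but only 2 anti-YTHDF1 libraries each. POLR2D, a stalk subunit, was held by 3 anti-YTHDF1 libraries. The assembly subunit POLR2J averaged 97.7 with anti-ARID1A, and its copies POLR2J2 and POLR2J3 averaged 97.8 and 94.7 with anti-YTHDF1, values that reads shared among the copies could affect.

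Of the 5 subunits shared by the 3 polymerases, POLR2E, POLR2F, POLR2H and POLR2L were held by all 12 libraries and POLR2K by none with anti-YTHDF1. POLR2H, at chr3:184361710-184368591, stood at 95.9 and 97.9 in WT, 97.6 and 96.7 in YTHDF1-KO and 98.0 and 97.9 in siARID1A cells with anti-ARID1A. With anti-YTHDF1 its percentiles were 93.1 and 97.7, 93.5 and 94.9, and 97.0 and 98.3. The highest signal of POLR2H lay downstream of the start in all 12 libraries, 0.49 to 1.52 kb into the gene, although the peaks also covered the promoter printed above. POLR2K stood at 44.0 and 67.7 in WT, 63.3 in YTHDF1-KO replicate 1 and 44.6 and 44.0 in siARID1A cells with anti-ARID1A, and had no peak in YTHDF1-KO replicate 2.

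POLR2L had the highest mean percentile of all members with anti-ARID1A, 99.95, with peaks 12.6 to 69.0 kb long in a window that also holds CD151 and TSPAN4. POLR2F averaged 98.5 with anti-ARID1A and 96.9 with anti-YTHDF1. Its strongest peak lay 71.3 to 88.8 kb from the start in all 6 anti-ARID1A libraries, in a window that also holds SOX10, a gene of neural crest and glia. With anti-YTHDF1 the strongest peak at POLR2L was 5.91 to 24.4 kb long in WT and siARID1A cells, and 0.883 and 1.84 kb long in YTHDF1-KO cells, where its percentiles were 70.7 and 94.8. With anti-ARID1A the strongest peaks were thus wide at POLR2L and far from the start at POLR2F.

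Among the 6 genes particular to RNA polymerase I, POLR1A and POLR1G were held by all 12 libraries, POLR1B by 11 and POLR1E by 10. POLR1A, the largest subunit, at chr2:86020216-86105886, stood at 84.3 and 84.8 in WT, 85.5 and 86.5 in YTHDF1-KO, and 91.5 and 91.8 in siARID1A cells with anti-ARID1A. With anti-YTHDF1 its percentiles were 82.8 and 92.5, 72.0 and 66.3, and 94.4 and 88.4. The anti-YTHDF1 values of POLR1A were lowest in the knockout cells, but they come from lists of unequal length. POLR1G, an initiation subunit at chr19:45406644-45410737, was the member of highest mean percentile with anti-YTHDF1, 99.4, and its lowest percentile in the 12 lists was 99.1. Its start lies 283 bp from that of PPP1R13L, and ERCC1 is also in its window.

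POLR1H, an RNA cleavage subunit at chr6:30060062-30064907, was held by none of the 12 libraries. Of the 55 other protein-coding genes within 1 Mb of POLR1H, 26 were likewise held by no library and 1 was held by all 6 anti-ARID1A libraries. The gap thus spans the neighbourhood and not this gene alone. GTF2H4, a TFIIH subunit in the same stretch, at chr6:30908207-30914106, was held by 5 anti-ARID1A and 2 anti-YTHDF1 libraries, at percentiles of 5.22 to 37.3. POLR1F, a stalk subunit, was held by 4 anti-ARID1A libraries at 29.6 to 39.9 and by no anti-YTHDF1 library. Of the subunits shared by polymerases I and III, POLR1D was held by 11 libraries and POLR1C by 9.

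All 10 RNA polymerase III genes were held by all 6 anti-ARID1A libraries, beside 68.3% of all genes. POLR3D and POLR3E were among those held by all 12. POLR3A, the largest subunit, at chr10:77975149-78029515, stood at 52.0 and 71.3 in WT, 60.4 and 73.5 in YTHDF1-KO, and 78.9 and 65.8 in siARID1A cells with anti-ARID1A. With anti-YTHDF1 it stood at 35.0 and 65.2 in WT, 40.3 in YTHDF1-KO replicate 1 and 56.3 in siARID1A replicate 2, with no peak in the other 2 libraries. POLR3E, of the termination subcomplex, stood at 71.7 to 87.1 with anti-ARID1A and 40.4 to 77.2 with anti-YTHDF1. With anti-YTHDF1 POLR3E was thus held in every list and POLR3A was not.

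The factors that recruit RNA polymerase III include 7 genes of TFIIIA and TFIIIC. All 6 anti-ARID1A libraries held 5 of these, beside 68.3% of all genes, and all 6 anti-YTHDF1 libraries held 1, beside 35.8%. GTF3A, the 5S RNA factor TFIIIA, and GTF3C1, GTF3C2, GTF3C4 and GTF3C5 of the TFIIIC complex, which recognises transfer RNA promoters, were held by all 6 anti-ARID1A libraries. GTF3C2 alone among these was held by all 12, at 88.7 to 96.6 with anti-ARID1A and 73.1 to 91.8 with anti-YTHDF1. GTF3C3 and GTF3C6, which are also TFIIIC subunits, were held by 2 and 3 anti-ARID1A libraries and by 1 anti-YTHDF1 library each.

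TBP and 17 TAF genes formed the largest group. All 6 anti-ARID1A libraries held 17 of these 18 genes, beside 68.3% of all genes. All 6 anti-YTHDF1 libraries held 4 of them, TAF1, TAF4, TAF6 and TAF15, beside 35.8% of all genes. TBP, at chr6:170554369-170572859, stood at 83.8 and 79.0 in WT, 77.2 and 85.6 in YTHDF1-KO and 75.7 and 83.9 in siARID1A cells with anti-ARID1A. With anti-YTHDF1 it stood at 45.0 in WT replicate 1, 8.98 in YTHDF1-KO replicate 2, and 91.2 and 63.7 in siARID1A cells, with no peak in the other 2 libraries. TBP was thus even across the anti-ARID1A lists and ranged from absent to high across the anti-YTHDF1 lists, within conditions as well as between them. In all 10 libraries that held TBP the highest signal lay 103 to 429 bp upstream of its start.

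TAF1, the largest TFIID subunit and its scaffold, was held by all 12 libraries, at 70.8 to 89.3 with anti-ARID1A and 9.48 to 79.4 with anti-YTHDF1. TAF4, a histone-fold TFIID subunit at chr20:61974798-62065881, was the only TAF whose mean percentile was among the 8 highest with anti-YTHDF1. Its anti-YTHDF1 percentiles were 96.7 and 99.5 in WT, 98.9 and 99.4 in YTHDF1-KO, and 95.9 and 96.9 in siARID1A cells. With anti-ARID1A they were 75.2 and 76.9, 91.7 and 85.0, and 87.2 and 87.3, so each anti-YTHDF1 value was above every anti-ARID1A value. The peak at TAF4 was 1.19 to 3.03 kb long and had its highest signal 7.29 to 8.03 kb downstream of the start in all 12 libraries, inside the gene. Whether that place is exonic or intronic was not analysed here. The promoter window of TAF4, which no library held, was 86% G and C in its 250 upstream bases, the highest among the 60 members.

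TAF9, another histone-fold subunit, at chr5:69364743-69369824, was the single member held by all 6 anti-ARID1A and no anti-YTHDF1 libraries, beside 0.891% of all genes. Its anti-ARID1A percentiles were 70.3 and 60.5 in WT, 52.6 and 56.7 in YTHDF1-KO, and 34.1 and 41.4 in siARID1A cells. They were lowest in the 2 siARID1A lists, which are also the shortest with this antibody. With all lists cut to the shortest, 2 anti-ARID1A libraries held TAF9. Its promoter window showed the same pattern, beside 2.92% of all promoters. The highest signal lay 62 to 265 bp downstream of the TAF9 start in all 6, in a window that also holds AK6 and RAD17. TAF13 and TAF9B, a paralog of TAF9, were held by all 6 anti-ARID1A libraries and by 1 anti-YTHDF1 library each. TAF11, the histone-fold partner of TAF13, differed from the other TAFs and was held by 1 library with each antibody, although 25 of the 29 genes within 1 Mb were held by all 6 anti-ARID1A libraries.

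Among the 15 genes of TFIIA, TFIIB, TFIIE, TFIIF and TFIIH, 11 were held by all 6 anti-ARID1A libraries, beside 68.3% of all genes. All 6 anti-YTHDF1 libraries held 2, GTF2F1 and the doubtfully placed copy GTF2H2C_2, beside 35.8% of all genes. GTF2B, which encodes TFIIB, the bridge between TBP and the polymerase, stood at 69.5 and 69.5 in WT, 80.7 and 85.6 in YTHDF1-KO, and 68.5 and 62.0 in siARID1A cells with anti-ARID1A. With anti-YTHDF1 GTF2B stood at 70.5 in WT replicate 2 and at 77.6 and 35.7 in siARID1A cells, and the other 3 libraries had no peak. GTF2F1, the large TFIIF subunit, was held by all 12 libraries. Its highest signal lay within 500 bp of the median place, 371 bp upstream of the start, in 11 of them.

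The genes of TFIIH, which opens promoter DNA and repairs it, were uneven, mainly through GTF2H2, GTF2H2C and GTF2H2C_2, near-identical copies whose calls are uncertain. GTF2H1, GTF2H3 and GTF2H5 were held by all 6 anti-ARID1A libraries and GTF2H4 by 5. GTF2H2 was held by none and its copy GTF2H2C by 2 anti-ARID1A libraries, and of the 14 other genes within 1 Mb of GTF2H2 2 were held by all 6 anti-ARID1A libraries. GTF2H2C_2 was held by all 12, but its position in the table lies over NKD2, far from the other copies, and is doubtful. GTF2A1L, the germ cell paralog of the TFIIA gene GTF2A1, was held by 1 library with each antibody, while GTF2A1 itself was held by 11.

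All 4 TFII-I family genes, GTF2I, GTF2IRD1, GTF2IRD2 and GTF2IRD2B, were held by all 12 libraries, beside 35% of all genes. GTF2IRD1 averaged 99.6 with anti-ARID1A and 95.6 with anti-YTHDF1. GTF2IRD2 and GTF2IRD2B, near-identical copies, averaged 98.9 and 98.2 with anti-ARID1A. The highest signal of GTF2IRD1 lay within 500 bp of a place 24.4 kb downstream of the start in 9 of 12 libraries.

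**Figure D3:**
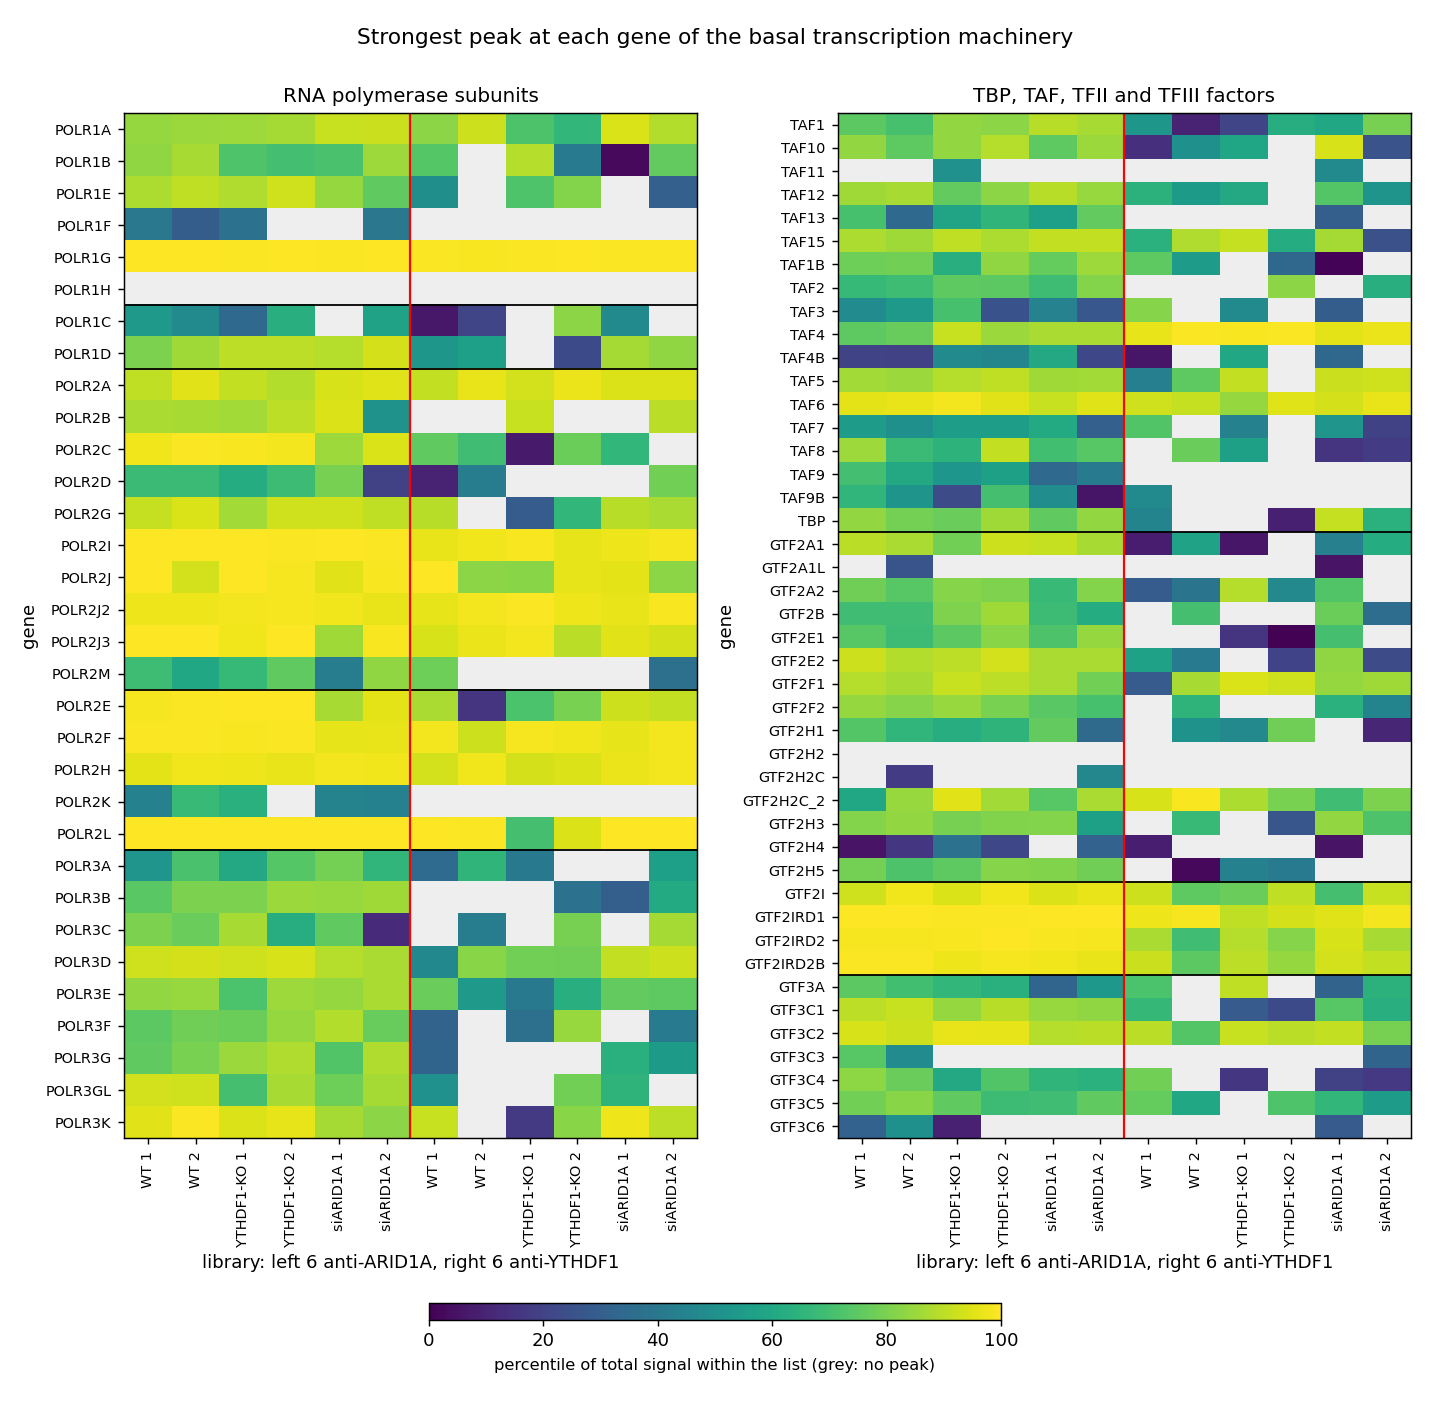
Percentile of the strongest peak within its list (colour, 0 to 100, grey where the library had no peak) for the genes shown (rows) in 12 libraries (columns, anti-ARID1A left of the red line). Black lines divide the groups: left, polymerase I, subunits of I and III, polymerase II, subunits of all 3 and polymerase III; right, TBP and TAFs, TFIIA to TFIIH, TFII-I family, TFIIIA and TFIIIC. POLR1G is near 100 in every column and POLR1H and GTF2H2 are grey throughout.

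The antibodies were compared gene by gene, 6 libraries against 6, with Fisher's exact test, two-sided, and Benjamini-Hochberg adjustment over all 19974 genes. The 6 libraries of an antibody were 2 replicates from each of the 3 conditions, the knockout and the knockdown included. The test counts them as independent, which the design does not ensure. After adjustment 0 members and 0% of all genes differed in either direction, at the gene or at the promoter window. The smallest p the test can give is 0.00216, and 865 genes would have to reach it to pass the adjusted threshold of 0.05, while 180 did. At an unadjusted p below 0.05, 4 members were held more often with anti-ARID1A, beside 4.16% of all genes, and 0 more often with anti-YTHDF1, beside 0.03%. The 4 were TAF9 (exact p = 0.00216, adjusted 0.240) and TAF13, TAF9B and POLR2K (exact p = 0.0152, adjusted 0.362 each). With all 12 lists cut to the length of the shortest none of these 4 passed: the unadjusted exact p was 0.0606 for TAF13, 0.182 for POLR2K, 0.455 for TAF9 and 0.545 for TAF9B. GTF2E1 and GTF3C4 passed in their place, each held by 6 anti-ARID1A libraries and 1 anti-YTHDF1 library (exact p = 0.0152, adjusted 0.566). At promoter windows the counts were 9 of 60 members, beside 10.5% of all promoters, and 0, beside 0.00632%. The shares of members and of all genes were thus of similar size, and the anti-ARID1A lists are also the longer ones.

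Whether machinery genes depend on YTHDF1 for their anti-YTHDF1 peaks was addressed by comparing WT and YTHDF1-KO cells. Anti-YTHDF1 libraries held 50 ± 7.07 members in WT and 47.5 ± 0.707 in YTHDF1-KO cells (mean ± SD, n = 2), and the WT values lay on both sides of the knockout values. Both WT libraries held 38 members and both YTHDF1-KO libraries 36, with 27 in common, or 71.1% of the first and 75% of the second, beside 77.2% and 80.8% for all genes. Peaks at POLR1G, POLR2A, POLR2H and TAF4 were among those listed in the knockout cells. With 2 libraries against 2 no test per gene was made, since the smallest exact two-sided p is 0.33.

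POLR2D was the single member held by both WT and neither YTHDF1-KO anti-YTHDF1 libraries, beside 2.58% of all genes. Its percentiles were 9.98 and 42.2 in WT and 78.6 in siARID1A replicate 2, with no peak in the other 3 libraries. With anti-ARID1A all 6 libraries held POLR2D at its start, the knockout cells included. GTF2E1, the large TFIIE subunit, had the opposite pattern, beside 1.95% of all genes, at 15.4 and 0.686 in YTHDF1-KO cells and 70.6 in siARID1A replicate 1. These 2 knockout peaks did not lie at the same place, one 20.9 kb downstream of the start and the other 406 bp upstream of it, on the side of RABL3, which starts 64 bp from GTF2E1 in the opposite direction. Without chromosomes 2, 9 and 17 POLR2D drops out of the count, which is then 0. Without 1 of the 4 libraries the WT count was 3 to 6 and the YTHDF1-KO count 2 to 7: without WT replicate 1 they were 3 and 7, without WT replicate 2 they were 5 and 3, without YTHDF1-KO replicate 1 they were 6 and 3, and without YTHDF1-KO replicate 2 they were 6 and 2. Over all genes the shares rose alike, to 5.38% to 7.21% and 3.96% to 7.08%. With lists cut to equal length neither POLR2D nor GTF2E1 kept its pattern.

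Anti-ARID1A peaks at machinery genes were compared between WT and siARID1A cells in the same way. The libraries held 73 ± 1.41 members in WT and 69 ± 2.83 in siARID1A cells, and the ranges (72 to 74 and 67 to 71) did not overlap. The shares of all genes held did not overlap either, at 80.7% and 82.3% in WT and 74.7% and 77.5% in siARID1A cells. Both siARID1A libraries held 67 members, each of them also held by both WT libraries, which held 72. That was 93.1% of the WT set and 100% of the siARID1A set, beside 88.4% and 98.0% for all genes. GTF3C3 and GTF3C6 were held by both WT and neither siARID1A library, beside 2.52% of all genes, and no member had the opposite pattern, beside 0.36%. GTF3C3, at chr2:196763035-196799683, stood at 73.8 and 48.2 in WT, with the highest signal 1.14 kb upstream of the start in replicate 1 and 16.0 kb downstream in replicate 2. GTF3C6, at chr6:110958706-110967872, stood at 31.3 and 50.3 in WT and 9.21 in YTHDF1-KO replicate 1, each time within 100 bp of the start. GTF3C6 was thus held at its promoter, while the WT peaks of GTF3C3 did not share a place. The siARID1A libraries covered less of the genome and had a larger mitochondrial share, as given above, and the part of this in the result was not tested. Without siARID1A replicate 2 the WT count rose from 2 to 5, and the share of all genes to 6.84%. With lists cut to the shortest of the antibody (71271 peaks) both GTF3C3 and GTF3C6 kept the pattern, beside 1.62% of all genes. TAF4B then had the opposite pattern, beside 0.901%. With all 12 lists cut to the shortest of all, neither GTF3C3 nor GTF3C6 was held in WT alone, and TAF9 was instead.

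The same WT anti-ARID1A libraries were set against YTHDF1-KO cells, so this comparison shares its controls with the preceding one. YTHDF1-KO libraries held 70 ± 2.83 members, and their range of 68 to 72 met that of WT. All 68 members held by both YTHDF1-KO libraries were held by both WT libraries, which was 94.4% of the WT set, beside overlaps of 96.1% of the WT set and 95.8% of the YTHDF1-KO set for all genes. GTF3C3 was the single member held by both WT and neither YTHDF1-KO library, beside 0.731% of all genes, and 0 members had the opposite pattern, beside 0.921%. GTF3C3 and POLR2D lie on chromosome 2, which held 6.07% and 6.12% of anti-ARID1A peaks in YTHDF1-KO cells against 8.73% and 9.11% in WT. With anti-YTHDF1 the shares were 5.28% and 5.10% against 8.03% and 7.59%. Of the 7 members on chromosome 2, TAF1B, GTF3C2, POLR1A, POLR1B and POLR2D were held by both anti-ARID1A libraries of the knockout cells. The part of the chromosome in the calls was not tested. Without WT replicate 1 the WT count was 3, without YTHDF1-KO replicate 1 it was 4, and without YTHDF1-KO replicate 2 the opposite count was 1, beside 1.84%, 1.80% and 2.04% of all genes. With lists cut to the shortest of the antibody GTF3C3 kept its pattern and GTF3C6 had it too, beside 1.09% of all genes. TAF4B then had the opposite pattern, beside 0.801%. With all lists cut to the shortest of all, TAF9 took the place of GTF3C3.

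Anti-YTHDF1 libraries held 57.5 ± 2.12 members in siARID1A cells, and their range of 56 to 59 lay above that of the 2 WT libraries, 45 to 55, which also serve as controls for the knockout. The shares of all genes held were also higher, at 67.2% and 65.3% in siARID1A cells and 64.5% and 57.4% in WT. Both siARID1A libraries held 46 members, of which 32 were held by both WT libraries. That was 69.6% of the siARID1A set and 84.2% of the WT set, beside 77.0% and 87.4% for all genes. POLR3B, the second largest subunit of polymerase III, was held by both siARID1A and neither WT library, beside 2.71% of all genes, and 0 members had the opposite pattern, beside 1.23%. POLR3B stood at 30.2 and 61.2 in siARID1A cells and 37.1 in YTHDF1-KO replicate 2, with highest signals 12.2 kb, 0.242 kb and 114 kb downstream of the start. All 6 anti-ARID1A libraries held POLR3B within 116 bp of its start. WT replicate 2 was the shortest of all lists, and without it the count in siARID1A cells rose from 1 to 5, without WT replicate 1 to 10, and without siARID1A replicate 1 or 2 to 4 or 6. The opposite count rose from 0 to 1, 1, 4 and 2 in the same order. Over all genes the share in siARID1A cells rose alike, to 5.48%, 10.1%, 5.80% and 6.80%. The direction turned with windows at the gene ends, where GTF3C5 was held in WT alone, and with lists cut to equal length, where TAF1B was, and POLR3B lost its pattern in both.

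The strongest peaks at machinery genes often lay at the gene start. The start was inside the strongest peak for 71.9% to 84% of held members over the 6 anti-ARID1A libraries, beside 53.8% to 58.4% of held genes, and for 40% to 57.8% over the 6 anti-YTHDF1 libraries, beside 26.7% to 40.4%. The highest signal lay within 500 bp of the start for 56.1% to 78% and 40% to 55% of held members, beside 41.9% to 47.7% and 24.7% to 35.0% of held genes. In the 2 siARID1A anti-ARID1A libraries these were 78% and 72.2%, above the 56.1% to 63.5% of the other 4, beside 47.7% and 47.3% against 41.9% to 43.1% over all genes, and the median length of the strongest peak was 1.54 and 1.68 kb there against 2.37 to 2.86 kb. Shorter peaks were also seen over all genes in those libraries, 1.56 and 1.84 kb against 2.70 to 3.20 kb.

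**Figure D4:**
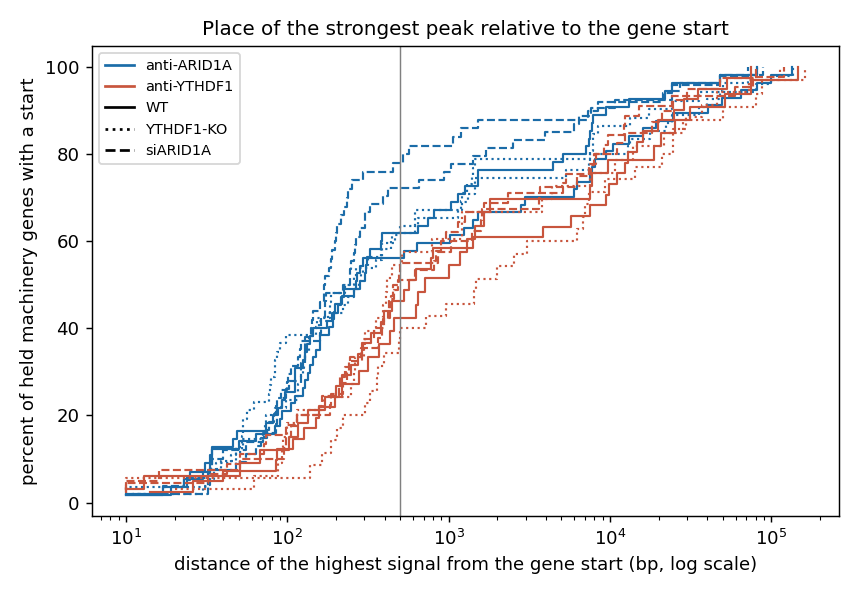
Cumulative percent of the machinery genes held by a library (y axis) by the distance of the strongest peak's highest signal from the gene start (x axis, bp, log scale, values under 10 drawn at 10), 1 line for each library. The grey line marks 500 bp, which 56.1% to 78% of genes reach with anti-ARID1A (blue) and 40% to 55% with anti-YTHDF1 (red).

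Both antibodies often marked the same place. Of the 118 to 201 anti-YTHDF1 peaks at machinery genes in a library, 75.1% to 89.8% met an anti-ARID1A peak of the same condition, beside 62.7% to 80.9% of all anti-YTHDF1 peaks. Of 35 members with a known start that were held by at least 10 libraries, 21 had the highest signal within 500 bp of their median place in at least 9 libraries. At 17 of these the median place was within 500 bp of the start. The other 4 were TAF5, POLR2H, TAF4 and GTF2IRD1, at 0.62, 1.44, 7.50 and 24.4 kb downstream. This count was made after the values were seen. No such count over all genes is given here, so it shows nothing particular to the machinery genes.

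The 60 upstream sequences held the ETS core in 28 members, or 46.7%, beside 19.3% of 15812 promoters in the RefSeq table. The E-box was found in 18.3% beside 7.83%, and the CRE motif in 36.7% beside 25.6%. The TATA box was found in 3 members (GTF2B, POLR2M and GTF3C3), or 5% beside 9.25%, and the GC box in 60% beside 56.0%. The CCAAT box was found in 28.3% beside 34.4%, the NRF1 motif in 6.67% beside 5.05% and the YY1 core in 3.33% beside 1.39%. Both strands of the 250 bases before the start were searched and matches could overlap. Median G and C content was 60.8% beside 62.4%, and the median number of CpG pairs 22 beside 17.

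Several members lie head to head with another gene. A gene on the opposite strand started within 1 kb of 19 of the 60 member starts, or 31.7%, beside 10.3% of all starts. Among the 7 promoters held by all 12 libraries 4 had such a partner, those of POLR2A (ZBTB4), POLR2H (CLCN2), POLR1G (PPP1R13L) and TAF6 (CNPY4). Among the 34 promoters held by all 6 anti-ARID1A and 1 to 5 anti-YTHDF1 libraries 13 did. Among the 18 promoters held by fewer than 6 anti-ARID1A libraries 2 did, those of POLR3C (RNF115) and POLR1C (YIPF3). At a shared promoter a peak cannot be given to either gene.

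Genes that work with the machinery were counted in the same way. All 6 anti-ARID1A libraries held 26 of 33 Mediator subunits, which link activators to the polymerase, and all 12 libraries held 11, beside the 68.3% and 35% of all genes given above. Of 5 TFIIH subunits whose symbols fall outside the rule 3 and 1 were so held, of 22 selectivity and assembly factors 16 and 7, and of 19 pause and elongation factors 18 and 10. None differed between the antibodies after adjustment. With anti-YTHDF1, MED19, MED30, SNAPC1, RRN3 and BDP1 were held by both WT and neither YTHDF1-KO library, or 5 of the 79 genes in these lists, and none had the opposite pattern, beside 2.58% and 1.95% of all genes. As background, RRN3 recruits polymerase I, and SNAPC1 and BDP1 belong to factors that recruit polymerase III. With anti-ARID1A, MED18 and the TFIIH subunits MNAT1 and ERCC3 were held by both WT and neither siARID1A library, beside 2.52% of all genes. With anti-YTHDF1, LARP7, which holds the elongation factor P-TEFb in its inactive complex, was held by both siARID1A and neither WT library, beside 2.71% of all genes.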

How the data were processed

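CUT&Tag peak lists of 12 A549 libraries were used, grouped by sample title. Tools named in the submitters' processing notes include SEACR 1.3, a peak caller, deepTools 3.5.2, Bowtie2 2.4.2, fastp 0.23.2, bedtools 2.30.0 and SAMtools 1.9, on GRCh38 (hg38). The settings, and how IgG entered, were not given in the sources used here. Deposited lists, 1 for each library, give each peak's total and highest signal (coverage), on a scale the authors set per library, so signal was only ranked within a list. Depth is unknown.

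Peaks on chromosomes 1 to 22 and X were set on RefSeq genes of GRCh38.p14 (Python 3.11.15, pandas 2.3.3, SciPy 1.17.1, NumPy 2.4.6). Percentiles are of total signal among the peaks used. Mean percentiles count a library with no peak as 0. Fisher's exact test was adjusted over all genes. A run on simulated data planted fewer genes than the 865 needed to pass the adjusted threshold, so it could not test that threshold. The members, lists and naming rules were chosen with earlier results of these data known. Motifs (8) were searched in upstream sequence. Named were members with a pattern between conditions, the 8 of highest mean percentile per antibody, those held by few libraries or with a low p, the extremes of each group, and TBP, POLR2A, POLR1A, POLR3A, TAF1 and GTF2B. Alternatives changed the window, overlap, ranking value, list length, chromosomes, replicates and replicate block.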

Additional observations from a re-analysis of the deposited data

Results flagged for a closer look

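With ARID1A knocked down, the number of machinery genes held moved in opposite directions with the 2 antibodies. It was lower than in WT by 4 of 77 members on average with anti-ARID1A (difference -4: 67 and 71 against 72 and 74) and higher by 7.5 with anti-YTHDF1 (59 and 56 against 55 and 45). Every siARID1A library lay on its side of both WT libraries. The difference between the antibodies was not tested. Over all genes the share held moved in the same directions, from 81.5% to 76.1% with anti-ARID1A and from 61.0% to 66.2% with anti-YTHDF1. No library stood apart from the other 5 of its antibody in the 12 values tested.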

How the results depend on the processing

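The counts of members are small, and most moved by over 1.5 times with the window or the length of the lists. Members held more often with anti-ARID1A at an unadjusted p below 0.05 numbered 4, 9 with windows of 1 kb at the gene ends, 9 with promoter windows, 2 others with all lists cut to the shortest (40562 peaks), and 4 to 7 without 1 library. The 7 came without siARID1A anti-YTHDF1 replicate 2. No alternative gave a member past the adjusted threshold. Anti-YTHDF1, WT only against YTHDF1-KO, was 1 as reported, 3 with gene ends, 2 with promoters, 0 with lists cut to the shortest of the antibody or of all, 0 without chromosomes 2, 9 and 17, and 3 to 6 without 1 library. YTHDF1-KO only was 1 as reported, 0 with gene ends, promoters or lists cut either way, and 2 to 7 without 1 library. Anti-ARID1A, WT only against siARID1A, was 2 as reported and 2, the same genes, with lists cut to the shortest of the antibody. It was 1 (GTF3C6) with gene ends, promoters or without the 3 chromosomes. It was 1 (TAF9) with lists cut to the shortest of all, and 2 to 5 without 1 library. SiARID1A only was 0 as reported, 1 with lists cut to the shortest of the antibody (71271 peaks) and 0 to 0 without 1 library. Anti-ARID1A, WT only against YTHDF1-KO, was 1 as reported, 0 with gene ends, promoters or without the 3 chromosomes, 2 with lists cut to the shortest of the antibody, 1 (TAF9) with lists cut to the shortest of all, and 1 to 4 without 1 library. YTHDF1-KO only was 0 as reported, 1 with windows of 3 kb or lists cut to the shortest of the antibody, and 0 to 1 without 1 library. Anti-YTHDF1, WT only against siARID1A, was 0 as reported, 1 with gene ends or lists cut either way, and 1 to 4 without 1 library. SiARID1A only was 1 as reported, 0 with gene ends, promoters or lists cut either way, 2 with 3 kb, and 4 to 10 without 1 library. Members held averaged 91.8% with anti-ARID1A, 87.9% with gene ends, 82.2% with promoters and 80.7% with all lists cut to the shortest, and 67.1%, 56.7% and 43.1% for the first 3 with anti-YTHDF1. The ranges without 1 library were 90.9% to 92.7% and 65.2% to 68.8%. The median percentile with anti-ARID1A was 84.5 by total and 89.4 by highest signal. In these counts smaller windows, shorter lists and fewer libraries act by construction, and other causes were not tested. Differences of single members were followed only for TAF9, TAF13, TAF9B, POLR2K, POLR2D, GTF2E1, GTF3C3, GTF3C6 and POLR3B, and none of these changed sign. They were picked for large differences, so a change of sign was unlikely from the outset. The balance of the siARID1A comparison with anti-YTHDF1 turned with gene ends and with lists cut either way. That of the YTHDF1-KO comparison with anti-YTHDF1, 1 against 1 as reported, was 3 against 7 without WT replicate 1 and 6 against 2 without YTHDF1-KO replicate 2.

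Replicate numbers did not pair the libraries: the deviations from group means correlated at -0.0150 to 0.00965. With the replicate block 5 members had an unadjusted p below 0.05 and 0 an adjusted one. Depth is unknown, so the absence of a peak does not show the absence of signal.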
